A study of Mus musculus with 6 samples.

Results

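The clustered replication-dependent histone genes were taken as every gene symbol that begins with Hist1h, Hist2h, Hist3h or Hist4h and is listed in all 6 count tables. This gave 67 of 21786 shared symbols, which are 6 genes for linker histone H1, 18 for H2A, 19 for H2B, 11 for H3 and 13 for H4. Each table held 68 matching symbols, and the one left out is not listed under the same name in every table. By position in the naming, 54 of the 67 belong to the large Hist1 cluster, 9 to Hist2, 3 to Hist3 and 1 to Hist4.

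Polyadenylated RNA of whole C57BL/6 mouse testes was sequenced in 6 libraries. The 3 libraries labelled Stra8 -/- came from males aged 1 year with grossly enlarged testes, in which type A spermatogonia-like cells predominate according to the labels. The 3 libraries labelled Stra8 +/+ came from normal testes of adult males aged 2 to 4 months. Age and testis size follow genotype here, so their parts in any difference cannot be told apart. The labels do not describe the Stra8 allele, and no treatment is given for either group.

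Stra8, the retinoic acid-induced gene needed for entry into meiosis, was looked at as the targeted gene. It had 211, 249 and 270 reads in the libraries labelled Stra8-deficient, and the wild-type libraries had 120, 132 and 93. The difference was not called (log2 fold change 0.21 ± 0.21 SE, edgeR adjusted p = 0.384), so the read counts of Stra8 itself do not separate the labels. With the allele not described, these counts cannot tell whether the labels hold. "Stra8-deficient" below therefore names libraries by their label. Markers of germ cell stages did separate the groups. The summed level of 8 elongating spermatid markers was 4.85 to 13.6 CPM (reads scaled to a common library size) in the libraries labelled Stra8-deficient and 28000 to 32500 CPM in wild type, and that of 9 pachytene spermatocyte markers was 551 to 755 against 11700 to 12500 CPM. The summed level of 10 markers of undifferentiated spermatogonia was 1150 to 1890 against 83 to 90.3 CPM.

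Replication-dependent histone genes supply the histones that package newly made DNA, and most are transcribed during S phase from clusters of short genes without introns. Their messengers usually carry no poly(A) tail. They end instead just after a conserved hairpin in the 3' untranslated region, which is bound by the stem-loop binding protein and cut with the help of the U7 small nuclear ribonucleoprotein. Some members are made in other ways or at other times, among them the testis-specific variants H1t, TH2A and TH2B, which appear in spermatogenic cells and replace their usual counterparts before protamines take over. Selection for poly(A) RNA favours messengers that carry a tail.

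The hairpin is shown first, because messengers that end just after it usually carry no poly(A) tail, while poly(A) RNA was sequenced. It was sought in the GENCODE M21 transcripts (GRCm38) as 16 bases after the stop codon that start with GG, form a perfect stem of 6 base pairs and close on a loop of 4 bases beginning with TT. In the sequences below the hairpin is in capitals and 5 bases on each side are in lower case.
Hist1h1c: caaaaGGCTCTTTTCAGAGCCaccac
Hist1h1t: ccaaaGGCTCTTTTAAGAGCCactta
Hist1h2bp: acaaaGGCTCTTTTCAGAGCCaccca
Hist3h2a: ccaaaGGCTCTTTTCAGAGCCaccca
Hist3h2ba: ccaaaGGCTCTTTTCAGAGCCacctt
Hist1h3a: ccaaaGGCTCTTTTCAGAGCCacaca
Hist1h4h: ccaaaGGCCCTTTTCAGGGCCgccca
Hist1h4i: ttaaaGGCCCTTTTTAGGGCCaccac

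All 67 members had a gene model in M21, of which 66 were protein coding and Hist3h2bb-ps was a pseudogene. The hairpin was found in 43 of the 66 coding members, at a median of 31 bases after the stop codon (21 to 58). Among all 21901 coding genes of the annotation 0.429% held it. The H1, H2A, H2B and H3 hairpins shared a stem and differed in the last base of the loop. The form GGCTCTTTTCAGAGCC was present in 3 H1, 10 H2A, 8 H2B and 4 H3 genes, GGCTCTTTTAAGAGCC in 1 H1, 2 H2B and 3 H3 genes, and GGCTCTTTTTAGAGCC in 1 H2A gene. The 11 H4 hairpins had other stems: 7 read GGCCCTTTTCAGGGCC, 2 read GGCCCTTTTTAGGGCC and 2 read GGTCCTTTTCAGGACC. Of the 43 members with a hairpin, 21 have a model that runs on for at least 100 bases past it, 13 of them with AATAAA after it. These 21 held 63.3% of member reads in the libraries labelled Stra8-deficient and 39.3% in wild type. The 22 that end sooner held 3.2% and 16.6%, and Hist1h2bp, with 267 wild-type reads, is counted among them. Of the 23 coding members without a hairpin, 15 have a transcript model that ends within 30 bases of the stop codon, where none could be found. Hist2h2be and Hist1h2bc have long models after the stop codon and held no such hairpin there. With 1 mismatch allowed none was found either, but that search covered only the bases near the stop codon.

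The polyadenylation hexamer AATAAA was present after the stop codon in 19 coding members and absent from that stretch in 47. It occurs there in 78.6% of all coding genes. The 19 members with AATAAA held 1120 reads, or 78.5%, of the member reads in the libraries labelled Stra8-deficient and 1644 reads, or 89.5%, in the wild-type libraries. Of these 19 genes 3 had no read in any library, against 22 of the 47 without the hexamer. Among the 47 are the 15 members whose model ends within 30 bases of the stop codon, where the hexamer could hardly be found. The members with AATAAA also had longer models (median 1679 bases against 480) and more sequence of their own, so the part of the hexamer in their read counts was not tested. Hist1h2bp has 2 coding models in M21, 1 with the hairpin and 1 that runs on to an AATAAA and holds no hairpin.

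Members drew few reads. In all, 25 of the 67 had 0 reads in each of the 6 libraries, 21 had 1 to 9 reads over all of them and 21 had 10 or more. Only 11 were read in every library. The members together held 320, 295 and 812 reads in the libraries labelled Stra8-deficient and 654, 704 and 478 in the wild-type libraries. As CPM of gene reads before scaling factors this was 40.7, 34.6 and 65.8 against 82.9, 79 and 71.2. Depth was 6733128 to 12425689 gene reads per library, and a count of 0 allows up to 0.241 to 0.446 CPM (3 counts). Absence of reads here is therefore not absence of the messenger, and counting intervals below cover counting error only.

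Near-identical sequence goes with the lack of reads. The share of 31-base windows of a member's annotated transcripts that occur in no other gene of M21 was a median of 12.5% for the 25 members at 0 reads (0 to 72.4%), 39.8% for the 21 members with 1 to 9 reads and 66.5% for the 21 members with 10 or more (0 to 100%). Under 50% of windows were unique in 23 of the 25 unread members and in 4 of the 21 best-read members. Among the members that the results turn on, unique windows made up 100% of Hist1h1t, 99.7% of Hist1h1a, 97.2% of Hist2h2be, 88.6% of Hist1h1c, 67.9% of Hist3h2a, 66.5% of Hist1h2bc, 55.9% of Hist1h2ba and 49.4% of Hist1h2bp. How reads that match several genes were treated is not given in the sources used here, so counts of members with little sequence of their own are uncertain.

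**Figure D1:**
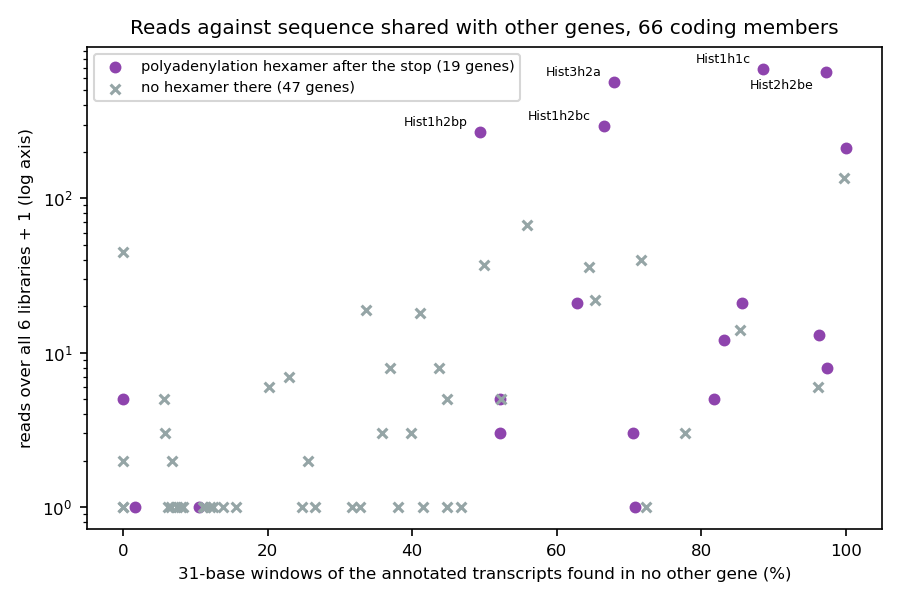
Each point is 1 of the 66 protein-coding members. The horizontal axis is the percentage of 31-base windows of its M21 transcripts found in no other gene, the vertical axis its reads over all 6 libraries plus 1 (log axis), and circles mark the 19 genes with AATAAA after the stop codon. Members at 0 reads lie mostly below 50% unique windows, and the 5 most-read members all carry AATAAA.

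The families differed in how their summed level moved. Reads of each family were summed per library and scaled by library size with trimmed-mean (TMM) factors to CPM. The H2B sum was 8.52, 8.66 and 13.3 CPM in the libraries labelled Stra8-deficient and 56.6, 56.0 and 45.4 CPM in wild type, a 5.18-fold lower mean without overlap. The H2A sum was 5.21, 5.80 and 7.09 against 23.9, 22.3 and 22.9 CPM, a 3.81-fold lower mean without overlap. Few genes carried both sums. Hist2h2be and Hist1h2bp held 567 and 267 of the 1008 H2B reads in wild type. In the libraries labelled Stra8-deficient they held 88 and 1 of 375. Hist3h2a held 387 of the 436 H2A reads in wild type and 177 of 219 in the other group. These sums, and the one over all 67 members below, thus do not stand for every gene in them. The H1 sum was 16.3, 10.7 and 29.6 against 18.7, 18.9 and 18.1 CPM, so the wild-type libraries lay within the spread of the other group. The H4 sum was 1.70, 2.47 and 3.68 against 1.87, 1.41 and 0.549 CPM, and the H3 sum 0.301, 0.476 and 0.602 against 0.935, 0.705 and 0.549 CPM, both overlapping. H3 and H4 together rested on a few reads, with 17 H3 and 98 H4 reads in the libraries labelled Stra8-deficient and 14 and 25 in wild type. Over all 67 members the sum averaged 38.1 ± 14.1 CPM (SD, n = 3) against 96.2 ± 7.66 CPM (SD, n = 3), 2.52-fold lower without overlap. Scaling by library size alone brought the log2 ratio of this sum from -1.34 to -0.73, that of H2A from -1.93 to -1.32 and that of H2B from -2.37 to -1.76. In whole testes fewer cells of a type and less RNA per cell cannot be told apart.

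**Figure D2:**
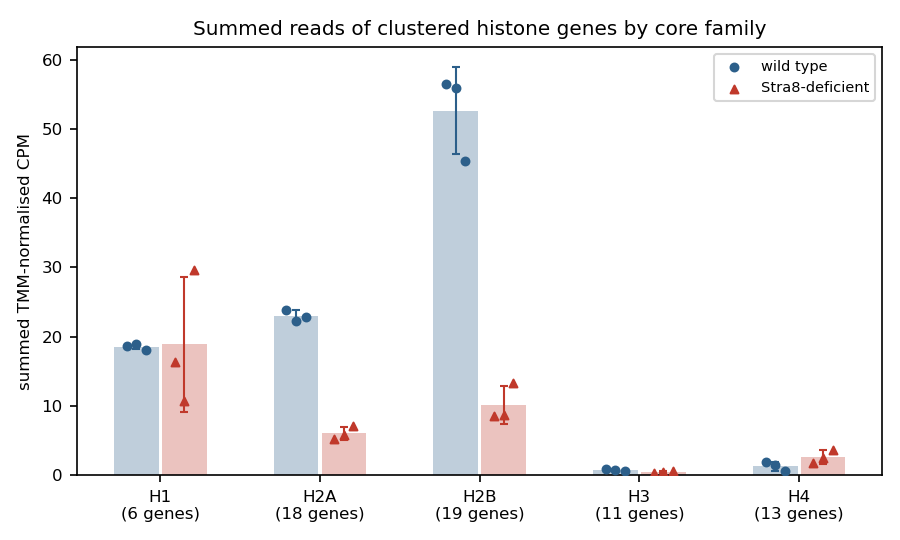
Bars give the mean and error bars the SD of the summed CPM of each histone family (vertical axis, linear) over 3 libraries per genotype, and points are single libraries. The H2A and H2B sums of the 2 genotypes do not overlap, the H1 sums do, and H3 and H4 lie near the bottom of the axis.

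The clusters differed as well. The Hist2 sum averaged 3.77 ± 1.5 CPM (SD, n = 3) in the libraries labelled Stra8-deficient and 31.2 ± 3.27 CPM in wild type (SD, n = 3). The Hist3 sum averaged 5.46 ± 1.00 against 21.4 ± 0.643 CPM (SD, n = 3 each). Neither pair of ranges overlapped. The sum of the 54 Hist1 genes averaged 28.4 ± 12.4 against 43.5 ± 6.04 CPM (SD, n = 3 each) and overlapped. Hist2h2be held 567 of the 591 Hist2 reads in wild type and 88 of 140 in the libraries labelled Stra8-deficient. Hist3h2a held 387 of the 407 Hist3 reads in wild type and 177 of 199 in the libraries labelled Stra8-deficient.

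The most-read members were not the same in the 2 groups. In the libraries labelled Stra8-deficient Hist1h1c alone held 38.8% of member reads (554), followed by Hist1h2bc (197), Hist3h2a (177), Hist1h1a (100) and Hist2h2be (88). In wild type Hist2h2be held 30.9% (567), followed by Hist3h2a (387), Hist1h2bp (267), Hist1h1t (179) and Hist1h1c (133). The first 5 held 78.2% and 83.5% of member reads. Per kilobase of the longest M21 transcript, the highest mean levels in wild type were those of Hist1h2bp (22.1 CPM per kb), Hist2h2be (11.4), Hist1h1t (10.2), Hist3h2a (9.51) and Hist1h2ba (6.54). In the libraries labelled Stra8-deficient they were those of Hist1h1c (9.23 CPM per kb), Hist1h2bc (4.52), Hist1h1a (3.64), Hist2h2bb (2.73) and Hist3h2a (2.26).

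**Figure D3:**
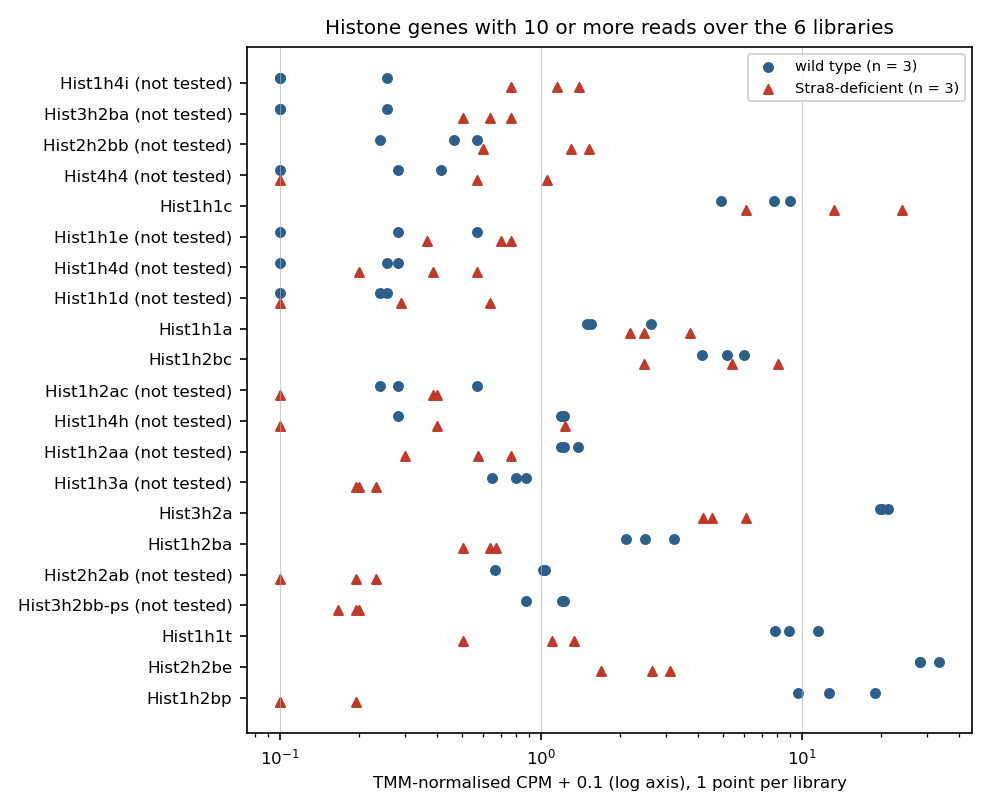
Each row is 1 of the 21 members with 10 or more reads and each point 1 library, as CPM plus 0.1 on a log axis (circles wild type, triangles Stra8-deficient). Rows are ordered by the ratio of the group means. Among tested members Hist1h2bp, Hist2h2be, Hist1h1t, Hist1h2ba and Hist3h2a show 2 separate groups with wild type to the right. Hist1h2bc, Hist1h1c and Hist1h1a overlap. Of the members not tested, Hist1h4i, Hist3h2ba and Hist2h2bb lie apart with Stra8-deficient to the right. Hist1h2aa, Hist1h3a, Hist2h2ab and Hist3h2bb-ps lie apart with wild type to the right. The groups lay apart in 80.2% of all genes tested, a share that leaves out genes below the filter.

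Genotypes were compared gene by gene with edgeR's quasi-likelihood test over all genes that passed a filter on low counts, with Benjamini-Hochberg adjustment over all 15018 and a threshold of 0.05. Of the 67 members 8 passed the filter. A member read mainly in 1 group could pass through that group alone. Hist1h2bp, Hist1h2ba and Hist1h1t did so through wild type, which left little room for a call in the other direction. Hist1h1a passed through the libraries labelled Stra8-deficient, with 21, 25 and 54 reads against 9, 18 and 8 in wild type. The 8 thus do not stand for the 67. Of the 8, 5 were called lower in the libraries labelled Stra8-deficient, 0 higher and 3 neither. No member was higher at an unadjusted p under 0.05 either, and DESeq2 gave 0 at both. Over all genes 75.8% were called, 39% higher and 36.7% lower. In all 5 called members the 2 groups did not overlap, as in 80.2% of all genes. A call is thus the usual result for a gene in this comparison, and the counts say nothing particular about histones.

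Hist1h2bp, an H2B gene, had the largest fall. Its level was 0, 0.0951 and 0 CPM in the libraries labelled Stra8-deficient, from 1 read, and 12.6, 18.9 and 9.52 CPM in wild type, from 267 reads. Every wild-type library was thus far above the 3 others. The ratio of rates was 499-fold in favour of wild type (95% exact counting interval 88.8 to 19800), and the edgeR test gave an adjusted p of 5.67e-06.

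Hist2h2be, which encodes an H2B variant known from olfactory neurons, was at 1.60, 2.57 and 3.01 CPM in the libraries labelled Stra8-deficient. In wild type it was at 33.4, 28.1 and 28.2 CPM. The groups lay far apart, and the log2 fold change was -3.62 ± 0.30 (SE, edgeR adjusted p = 4.85e-06).

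Hist1h2ba encodes TH2B, the testis-specific H2B of spermatogenic cells. Its level was 0.401, 0.571 and 0.535 CPM in the libraries labelled Stra8-deficient and 3.12, 2.40 and 2.01 CPM in wild type. All 3 wild-type libraries were higher (log2 fold change -2.29 ± 0.41 SE, edgeR adjusted p = 7.41e-04). Hist1h2aa encodes its partner TH2A and lies beside it in the opposite direction. It had 2, 5 and 10 reads against 7, 8 and 7, or 0.200, 0.476 and 0.669 against 1.09, 1.13 and 1.28 CPM. The CPM ranges did not overlap and the ratio of rates was 0.414 (95% exact counting interval 0.206 to 0.816), but the gene did not pass the filter and was not tested. Without the filter its log2 fold change was -1.28 ± 0.59 (SE, edgeR adjusted p = 0.0783), which misses the threshold.

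Hist3h2a, an H2A gene of the small cluster on chromosome 11, was at 4.41, 4.09 and 6.02 CPM in the libraries labelled Stra8-deficient. In wild type it was at 21.2, 20.2 and 19.8 CPM. The groups did not overlap, and the log2 fold change was -2.07 ± 0.26 (SE, edgeR adjusted p = 8.25e-05). Trim17, a neighbour named after its values were seen, shares exon bases with Hist3h2a on the same strand in M21. It had 190 reads in the libraries labelled Stra8-deficient and 7268 in wild type (log2 fold change -6.08 ± 0.35 SE, edgeR adjusted p = 5.15e-07). Its part in the counts of Hist3h2a was not tested.

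The H1 genes did not move together. Hist1h1t encodes H1t, the linker histone of spermatocytes, and was at 0.401, 1.24 and 1.00 CPM in the libraries labelled Stra8-deficient and 7.79, 11.4 and 8.79 CPM in wild type. The groups did not overlap (log2 fold change -3.37 ± 0.45 SE, edgeR adjusted p = 1.11e-04). Hist1h1c, which encodes the somatic H1.2, was at 13.2, 5.99 and 24.0 CPM against 8.89, 4.79 and 7.69 CPM. The second Stra8-deficient library lay inside the wild-type range and the third was the highest of all. The log2 fold change was 1.02 ± 0.49 (SE) and missed the threshold (edgeR adjusted p = 0.0823). It passed when libraries were scaled by size alone (1.63, adjusted p = 0.0126) or by upper-quartile factors (1.29, 0.0342), and without the second Stra8-deficient library (1.35, 0.0121). Without the third Stra8-deficient library, the highest, it was 0.425 (adjusted p = 0.373).

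Hist1h1a, which encodes H1.1, was at 2.10, 2.38 and 3.61 CPM in the libraries labelled Stra8-deficient and at 1.40, 2.54 and 1.46 CPM in wild type. The groups overlapped (log2 fold change 0.58 ± 0.42 SE, edgeR adjusted p = 0.232), and it passed with scaling by library size alone (1.19, adjusted p = 0.0233). The remaining H1 genes had too few reads to be tested. Hist1h1e, for H1.4, had 6, 7 and 4 reads against 3, 0 and 1. Hist1h1d, for H1.3, had 0, 2 and 8 against 1, 1 and 0. Hist1h1b, for H1.5, had 0, 2 and 3 against 0, 0 and 0. For Hist1h1e the ratio of rates was 2.27, with a counting interval of 0.742 to 9.29 that includes equal rates.

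Hist1h2bc, an H2B gene with a long model after the stop codon and no hairpin, was at 5.31, 2.38 and 7.96 CPM in the libraries labelled Stra8-deficient. In wild type it was at 5.92, 5.07 and 4.03 CPM, within the range of the first group. The log2 fold change was 0.06 ± 0.45 (SE, edgeR adjusted p = 0.905). In size this was the smallest log2 fold change of the 8 members tested, although single libraries ranged from 2.38 to 7.96 CPM.

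**Figure D4:**
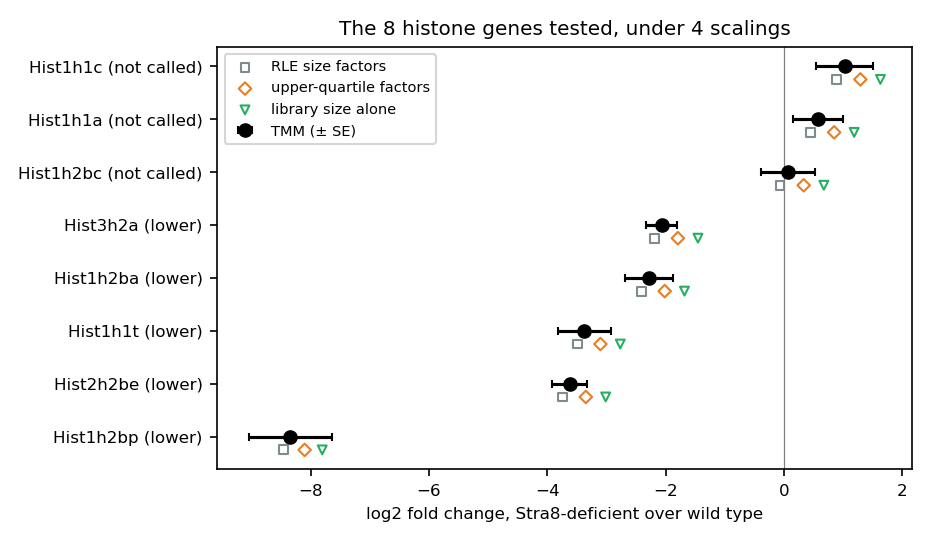
The horizontal axis is the log2 fold change, Stra8-deficient over wild type, of the 8 members tested (rows). Filled points with bars are the values with TMM scaling ± SE, and open symbols the values under 3 other scalings. The 5 called members stay below 0 under each scaling shown, between -1.45 and -8.45, and Hist1h1c and Hist1h1a stay above 0.

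Among members below the filter, some pooled counts departed from equal rates in 1 direction or the other. Their intervals cover counting error only and leave out variation between animals. These members were also picked after their values were seen. Hist1h4i, an H4 gene, had 13, 11 and 10 reads in the libraries labelled Stra8-deficient and 1, 0 and 0 in wild type, a ratio of rates of 18.2 (95% exact counting interval 3.05 to 740). Hist3h2ba, an H2B gene, had 4, 7 and 8 reads against 1, 0 and 0, a ratio of 10.2 (1.62 to 423). Hist2h2bb, also for H2B, had 5, 15 and 18 reads against 3, 1 and 2, a ratio of 3.39 (1.42 to 9.81). None of its 31-base windows is unique, and it shares exon bases with the M21 gene Gm42743 on the same strand, so the source of its reads is uncertain.

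The opposite was seen for 3 others. The pseudogene Hist3h2bb-ps had 1, 1 and 1 reads against 5, 8 and 6, a ratio of rates of 0.0845 (0.016 to 0.287). Hist2h2ab, an H2A gene, had 0, 1 and 2 against 6, 4 and 5, a ratio of 0.107 (0.0199 to 0.378). Hist1h3a, an H3 gene, had 1, 1 and 2 against 5, 5 and 3, a ratio of 0.165 (0.0391 to 0.533).

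With no filter on low counts 18938 genes, among them 42 members, could be fitted. Of these members 2 were called higher, namely Hist1h4i (log2 fold change 3.94 ± 0.98 SE, edgeR adjusted p = 0.00417) and Hist3h2ba (3.06 ± 1.05 SE, adjusted p = 0.0238), beside 33.1% of all genes. Called lower were 8 members, beside 31.9% of all genes. These were the 5 above with Hist3h2bb-ps (-3.34 ± 0.71 SE), Hist2h2ab (-3.05 ± 0.84 SE) and Hist1h3a (-2.45 ± 0.73 SE). Hist2h2bb missed the threshold (1.70 ± 0.70 SE, edgeR adjusted p = 0.0532). Both counts, out of 42, are smaller shares than those of all genes, and 21 of the 42 members had fewer than 10 reads.

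The authors' deposited table lists 41 members. At a corrected p under 0.05 it holds 4 of them as higher, beside 33.7% of all its genes, and 9 as lower, beside 32.4%. In the authors' deposited table the 4 are Hist1h1c (log2 ratio 1.02), Hist1h4i (4.22), Hist2h2bb (1.74) and Hist3h2ba (3.35). The authors' deposited table gives Hist1h2aa at -1.31 (corrected p = 0.0372), which the test above did not call. It rests on the same 6 libraries.

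Other H4 genes were read too thinly to order. Hist1h4h had 3, 0 and 17 reads in the libraries labelled Stra8-deficient and 7, 8 and 1 in wild type, with the third library of each group standing apart from the other two in opposite directions. Hist4h4 had 0, 10 and 7 against 2, 0 and 1. Hist1h4d had 1, 3 and 7 against 1, 0 and 1. Hist1h4b had 0, 0 and 6 against 0, 0 and 0, all from the third Stra8-deficient library, whose reads were counted on another gene list than those of the other 5.

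Promoter windows of the RefSeq annotation (GRCm38.p6, 250 bases before to 50 after the start) were matched for 60 of the 67 members, with 2 windows for Hist1h2be and 1 for each other. They are shown for the TH2B gene, which shares its window with the TH2A gene, for the H2B gene with the largest fall, and for an H1 gene that was called lower beside one that was not called. Capitals mark the TATA box motif TATAAA, the CCAAT motif and the octamer motif ATTTGCAT, each on either strand.
Hist1h2ba, chr13:23934107-23934406, minus strand: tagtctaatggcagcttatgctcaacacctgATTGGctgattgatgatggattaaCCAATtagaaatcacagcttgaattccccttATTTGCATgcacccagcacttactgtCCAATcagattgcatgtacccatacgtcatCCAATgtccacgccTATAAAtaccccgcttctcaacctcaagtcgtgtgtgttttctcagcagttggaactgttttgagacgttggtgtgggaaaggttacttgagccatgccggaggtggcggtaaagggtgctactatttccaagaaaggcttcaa
Hist1h2bp, chr13:21787238-21787537, plus strand: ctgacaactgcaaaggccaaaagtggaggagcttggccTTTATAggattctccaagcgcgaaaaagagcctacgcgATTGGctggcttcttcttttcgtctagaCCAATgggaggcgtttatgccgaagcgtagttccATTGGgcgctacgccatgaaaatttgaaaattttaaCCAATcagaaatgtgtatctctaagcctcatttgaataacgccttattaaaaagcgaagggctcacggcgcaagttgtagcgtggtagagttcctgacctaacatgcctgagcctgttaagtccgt
Hist1h1t, chr13:23695561-23695860, plus strand: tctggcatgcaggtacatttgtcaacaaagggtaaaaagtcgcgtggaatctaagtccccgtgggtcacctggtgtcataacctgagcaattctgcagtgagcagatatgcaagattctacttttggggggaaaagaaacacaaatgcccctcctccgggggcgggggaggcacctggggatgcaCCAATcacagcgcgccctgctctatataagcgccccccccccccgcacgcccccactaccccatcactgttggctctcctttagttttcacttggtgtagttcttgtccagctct
Hist1h1c, chr13:23738557-23738856, plus strand: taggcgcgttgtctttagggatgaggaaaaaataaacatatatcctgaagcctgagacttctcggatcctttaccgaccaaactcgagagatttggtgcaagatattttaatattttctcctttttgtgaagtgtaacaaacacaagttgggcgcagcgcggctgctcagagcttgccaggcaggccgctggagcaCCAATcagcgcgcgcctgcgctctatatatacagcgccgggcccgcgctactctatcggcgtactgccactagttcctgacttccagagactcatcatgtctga

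The window of Hist1h2aa, chr13:23934187-23934486 on the plus strand, overlaps that of Hist1h2ba, so most of the bases shown for the TH2B gene also lie in the window of the TH2A gene. Both strands were searched, and a window counted once for each motif it held. CCAAT was present in 52 of the 61 windows (85.2%) and in 37.4% of all 32851 RefSeq windows of the same length. It was found in every H1, H2A, H2B and H3 window and in 3 of the 12 H4 windows. TATAAA was present in 35 of 61 (57.4%) and in 13.6% of all windows. The octamer ATTTGCAT was present in 14 of 61 (23.0%) and in 1.74% of all windows, in 7 of 17 H2A and 7 of 17 H2B windows and in none of H1, H3 or H4. By exact match Hist1h2ba held all of them, Hist1h2bp held TATAAA and CCAAT, and Hist1h1t and Hist1h1c each held CCAAT alone. The near form TATATA, which this search leaves out, follows CCAAT in the windows of both H1 genes. The TATAAA of Hist1h2bp lies on the other strand, near the upstream end of its window. The H1 gene that was called lower and the one that was not called thus held the same motif of the 3.

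Genes for histone messengers, polyadenylation, histone chaperones, DNA synthesis and replication-independent histones were taken from 5 lists of textbook components. For the 3' end processing and transcription of histone messengers, 12 of 23 tested genes were higher in the libraries labelled Stra8-deficient, 5 lower and 6 not called, with a median log2 fold change of 0.74. Over all genes tested the shares were 39% higher and 36.7% lower and the median was 0.11, against which the counts of each list are to be read. Slbp, the stem-loop binding protein, averaged 59.8 ± 21.3 CPM against 23.5 ± 2.75 CPM (SD, n = 3 each) and rose (log2 fold change 1.35 ± 0.28 SE, edgeR adjusted p = 0.00167). Npat, the coactivator of histone gene transcription at histone locus bodies, rose by 1.76 ± 0.24 (SE, edgeR adjusted p = 1.32e-04). Snrpg (3.70 ± 0.70 SE) and Snrpb (2.36 ± 0.33 SE), Sm proteins of the small nuclear ribonucleoproteins, rose most. The wild-type libraries held only 2, 3 and 0 reads of Snrpg, so the size of its rise is uncertain. Coil, the coilin of Cajal bodies, fell most (-3.17 ± 0.20 SE).

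For general cleavage and polyadenylation 6 of 19 tested genes were higher, 5 lower and 8 not called (median 0.20), smaller shares in both directions than over all genes. Cpsf4 (2.07 ± 0.19 SE) and the poly(A) polymerase Papolg (1.35 ± 0.21 SE) rose. Papolb, the poly(A) polymerase of spermatids, averaged 6.93 ± 2.94 against 799 ± 53.8 CPM (SD, n = 3 each) and fell by 6.85 on the log2 scale (SE 0.34, edgeR adjusted p = 1.99e-07). Pabpc2, a testis poly(A)-binding protein, had the largest fall of the list, from a mean of 1230 to 0.340 CPM.

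Of the histone chaperones and assembly factors 17 of 24 were higher, 3 lower and 4 not called (median 1.03). Mcm2, a helicase subunit that also binds histones, rose by 4.20 ± 0.31 (SE) and the chaperone Npm1 by 2.82 ± 0.49 (SE). Chaf1a, the large subunit of chromatin assembly factor 1, fell by 2.09 on the log2 scale (SE 0.19). For DNA synthesis in S phase 19 of 23 were higher, 0 lower and 4 not called (median 1.66), with the largest rises in Tyms, thymidylate synthase (4.10 ± 0.69 SE), and Pola1, a DNA polymerase alpha subunit (3.94 ± 0.26 SE). The difference in direction between these genes and the called members of the histone clusters was not itself tested.

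For histone genes outside the clusters, made independently of replication, 6 of 13 tested were higher, 6 lower and 1 not called (median -0.19), beside 39% and 36.7% of all genes. Cenpa, the centromeric H3 (4.91 ± 0.24 SE), and the macroH2A gene H2afy2 (3.27 ± 0.27 SE) rose most. H1fnt, a linker histone of spermatids, had 0 reads in the libraries labelled Stra8-deficient and averaged 904 ± 5.44 CPM in wild type (SD, n = 3). The median of this list turned positive with scaling by library size alone (0.42) or upper-quartile factors (0.08). That of the other 4 lists was positive under each of the 4 scalings.

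**Figure D5:**
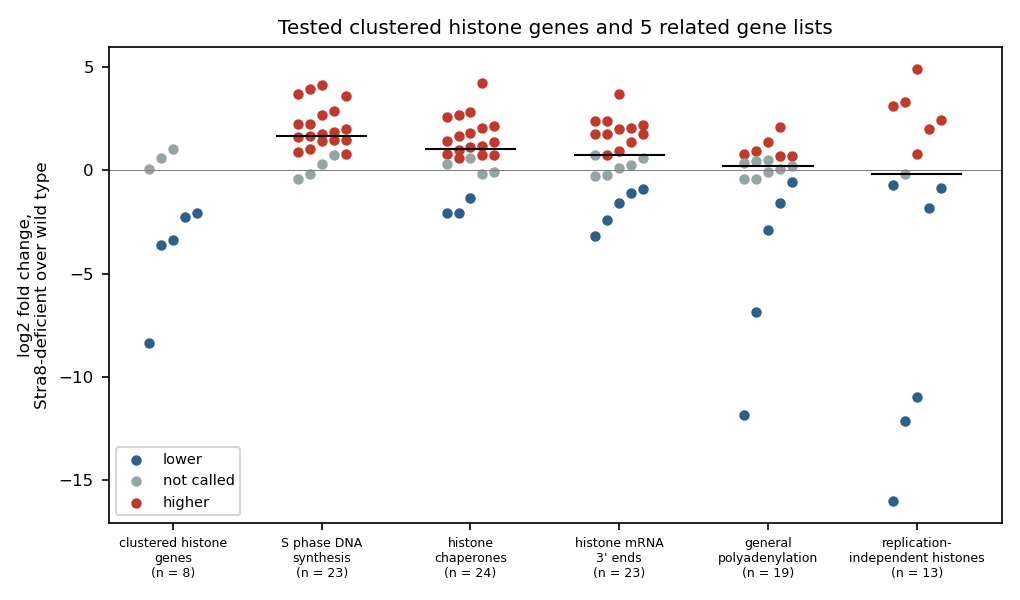
Each point is 1 tested gene, with its log2 fold change (Stra8-deficient over wild type) on the vertical axis and the median of each of the 5 related lists as a line. Colours give the call at an edgeR adjusted p under 0.05. The 8 clustered histone genes, some of which passed the filter through 1 group alone, hold 5 lower and 3 not called. Of 23 S phase genes 19 are called higher, beside 39% of all genes. H1fnt, with 0 reads in the Stra8-deficient libraries, is drawn at its fitted value, which depends on the prior count and is no bound.

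Markers of several cell types differed between the groups, to be read beside the 39% of all genes called higher and 36.7% called lower. All 9 pachytene, 7 of 8 round spermatid and 8 of 8 elongating spermatid markers were lower in the libraries labelled Stra8-deficient, and 9 of 10 markers of undifferentiated spermatogonia were higher. Of 9 Sertoli cell markers 8 were lower, with a summed level of 92.8 to 676 against 1650 to 1850 CPM. All 6 macrophage markers were higher, with a summed level of 343 to 1040 against 20.6 to 26.6 CPM. None of 7 Leydig cell markers was called, with 18.4 to 2700 against 776 to 1270 CPM. Of 4 peritubular cell markers 1 was lower and 3 were not called. Of 6 markers of differentiating spermatogonia 4 were higher, 1 lower and 1 not called. Of 4 endothelial markers 2 were higher and 2 not called, and the 1 lymphocyte marker tested was lower. Prm1 and Prm2, the protamines of elongating spermatids, averaged 0.587 and 0.301 CPM in the libraries labelled Stra8-deficient and 4770 and 8840 CPM in wild type, and the sperm channel gene Catsper1 had no read in the former. Pax7, a marker of spermatogonial stem cells, and the macrophage gene Mmp12 had no read in wild type. The part of these cell types in the histone values was not tested.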

How the data were processed

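TopHat, HTSeq, edgeR and the mm9 build are named in the submitters' processing notes, without versions. For strand, settings and reads matching several genes, the choice is not given in the sources used here. Reads per gene symbol were deposited as whole, unnormalised counts. HTSeq's counters name no gene (20.94% to 34.48% of a library's reads) and stayed out of library sizes and tests. The third Stra8-deficient table lists 23285 symbols and the others 22055, so the 21786 shared symbols were used, with 99.31% to 99.68% of gene reads. The authors' deposited table gives log2 ratios and p-values of their own comparison.

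Counts were filtered with filterByExpr, scaled by TMM and compared with edgeR 4.0.16 (R 4.3.3, glmQLFit and glmQLFTest, robust, genotype as the one term, tested on simulated data), with Benjamini-Hochberg adjustment over 15018 genes. SE is the log2 fold change over the square root of F. Ratios of rates carry exact binomial 95% intervals. Alternatives were other scalings, no filter, DESeq2 1.42.0, a replicate block and each library left out. Members and lists were chosen with earlier results of these data known. Values in every library are given for the most-read members, the largest falls per family, every H1 gene and the testis variants; 2 genes per pathway list in the more frequent direction and 1 in the other are named, with Slbp, Npat and Papolb. Hist1h4i, Hist3h2ba, Hist2h2bb, Hist3h2bb-ps, Hist2h2ab, Hist1h3a and the other H4 genes beyond this rule, and Prm1, Prm2, Catsper1, Pax7 and Mmp12, were picked after their values were seen. Sequences come from GENCODE M21 and RefSeq, both GRCm38, with no coordinates carried over from mm9.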

Additional observations from a re-analysis of the deposited data

How the results depend on the processing

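The 5 members called lower were 5 under each other scaling, with DESeq2, with the replicate block and with any library left out, and 8 without the filter on low counts. The number called higher was 0 with TMM, RLE scaling and DESeq2. It was 2 with scaling by library size alone (Hist1h1a and Hist1h1c), 1 with upper-quartile factors (Hist1h1c) and 2 without the filter (Hist1h4i and Hist3h2ba). With any 1 library left out it was 1: Hist2h2bb without the first Stra8-deficient library (1.97), Hist1h1c without the second (1.35), and Hist1h4i without the third (4.11) or without the first (6.27), the second (3.36) or the third (3.51) wild-type library, all log2 fold changes. Hist1h4i and Hist2h2bb enter there because the smaller set changes which genes pass the filter. The total of genes called ranged from 10357 to 12303. No direction of a called member reversed. Scaling moved the median of all genes from 0.11 (TMM) to -0.01 (RLE), 0.38 (upper quartile) and 0.73 (library size alone), and the higher share of calls from 51.5% to 48.9%, 57.3% and 63.6%. The H1 sum, at a log2 ratio of 0.02, was -0.11 with RLE and 0.63 with library size alone, and with the latter the Hist1 sum went from -0.61 to -0.001, the Hist2 sum from -3.05 to -2.44, the Hist3 sum from -1.97 to -1.36 and the H3 sum from -0.67 to -0.06.

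No label says that the replicate numbers pair the samples, and so few libraries cannot show whether they do. Same-numbered libraries correlated at 0.063, 0.105 and -0.045 in their deviations from the group means, and the other pairs at -0.15 to 0.093. With the replicate block 1 member was called higher (Hist1h1c, 0.86, adjusted p = 0.0488) and 5 lower, with 11219 genes called in all.

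Of the 67 members 8 had enough reads to be tested at this depth, so most of the group was not compared. Without the third Stra8-deficient library, counted on another gene list, the calls of the 5 pathway lists were as given, except that 5 instead of 6 replication-independent histone genes were lower; this was chosen after seeing the data.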

Other observations

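A further H3 gene of the Hist2 cluster goes by different names in the count tables and was left out of the comparison. Hist2h3c2-ps is listed in 5 of them, with 3 and 0 reads in the first and second libraries labelled Stra8-deficient and 7, 3 and 12 reads in the wild-type libraries. Hist2h3c2 is listed in the third Stra8-deficient table alone, with 2 reads. Whether both names stand for the same counted bases is not given in the sources used here.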
